A study of Mus musculus with 160 samples.

Results

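The genes described here are 10 adhesion genes of leukocyte traffic, measured in the distal colon of mice in which a candidate driver gene of inflammatory bowel disease was knocked out. They were taken by name, through the Ensembl identifiers, from the 39179 genes of the count files, and all 10 were found. The 5 genes *Icam1*, *Vcam1*, *Madcam1*, *Sele* and *Selp* encode ligands displayed on activated vessel walls. The 5 genes *Itgb2*, *Itgal*, *Itgam*, *Itga4* and *Itgb7* encode integrin subunits of leukocytes. The 160 samples were bulk RNA-seq libraries of distal colon from 4 lines, each with homozygous knockout (KO) mice and wild-type (WT) littermates. The *Nckap1l* line (named HEM1 in the labels) had 16 KO and 15 WT samples, the *Dock2* line 18 and 24, the *Gpsm3* line 20 and 20, and the *Dok3* line 26 and 21.

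The mice of all groups belonged to experiments with dextran sulfate sodium (DSS), which injures the colon epithelium when drunk, given for 5 days and followed by water. The DSS concentration was 3% in the *Dock2* and *Gpsm3* lines and 3.5% in the *Dok3* line, except for a first round of *Dok3* mice at 3%, and the *Nckap1l* line had the lowest concentration of the lines. Tissue was taken on day 10 after 5 days of water, or in the *Nckap1l* line on day 12 after 7 days of water. The study also kept untreated animals, and which samples came from treated mice was not given in the sources used here, so each comparison of KO with WT ran over treated and untreated mice together. A difference in the share of treated mice between genotypes and an effect of the genotype cannot be told apart. The strain was C57BL6/J for 3 lines and was labelled 129 for the *Dok3* line. The *Gpsm3* and *Dok3* mice were all labelled male. The *Nckap1l* line had 4 KO and 8 WT females and the *Dock2* line 8 KO and 12 WT females. The lines were existing knockout models re-derived with C57BL6/J females, and the study's methods name no knockout limited to a cell type. The gene knocked out in a line is called its deleted gene below. The methods do not say how it was disrupted, so its RNA need not be absent in KO samples. The mice were young adults by the study's methods, and the groups were matched for age. Nothing in the labels tied a sample to a cage or litter, and p-values measure the spread between these samples.

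Leukocytes leave the blood by rolling on selectins, arresting through integrins on vessel ligands of the immunoglobulin family, and crossing the wall. E-selectin (*Sele*) is made anew by endothelium under inflammatory signals, whereas P-selectin (*Selp*) is also stored in granules of endothelium and platelets. ICAM-1 binds the integrins LFA-1 (*Itgal* with *Itgb2*) and Mac-1 (*Itgam* with *Itgb2*), VCAM-1 binds the integrin of *Itga4* with *Itgb1*, and MAdCAM-1, the addressin of gut venules, binds the gut homing integrin of *Itga4* with *Itgb7*. ICAM-1 and VCAM-1 are also made by cells other than endothelium, among them macrophages and fibroblasts, so a level in whole colon is not a level in vessels. In bulk tissue, fewer cells of a type and less RNA per cell cannot be told apart.

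Libraries held 4344988 to 19993833 counts, with a median of 15989625.5 and 8 libraries under 10000000. Colon epithelium markers were present in every library (summed 1510 to 19700 CPM), as were blood endothelium markers (9 genes, 111 to 629 CPM). Keratins and other skin markers (6 genes) exceeded a summed 100 CPM in 32 of 160 samples, 7 KO and 8 WT of the *Nckap1l* line, 1 and 4 of *Dock2*, 2 and 1 of *Gpsm3* and 4 and 5 of *Dok3*. The deleted gene itself was called lower in the *Gpsm3* KO (median 0.572 against 3.21 CPM, log2 fold change -2.06, SE 0.28, edgeR adjusted p = 0.000105). It was not called in the other lines. *Nckap1l* had medians of 14.8 and 27.2 CPM in KO and WT (-1.09, adjusted p = 1), *Dock2* 22.5 and 34.2 (-0.62, adjusted p = 0.209) and *Dok3* 3.16 and 3.63 (-0.48, adjusted p = 1). The deleted gene lay below the lowest WT sample in 14 of 20 *Gpsm3* KO samples, 8 of 16 of *Nckap1l*, 3 of 18 of *Dock2* and 4 of 26 of *Dok3*, and in *Dok3* the highest KO sample (39.6 CPM) exceeded the highest WT sample (26.3). Expression of the deleted gene therefore did not fully separate the genotypes as labelled in any line. In 5 *Dok3* samples labelled male, the sex-linked genes were those of a female.

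The members lie on 7 chromosomes, and the 250 bases before the RefSeq start were at hand for 7 of them (GRCm38.p6), all but *Vcam1*, *Itgb2* and *Itgal*. The windows shown, those of 4 vessel ligands and of *Itgam*, are the ones that held a match to a motif named below. Both strands were searched for a kappaB-type motif (GGNNNTTCC), a PU.1-type motif (GAGGAAG) and a TATA box (TATAAA), which do not overlap one another in the windows shown, and capitals mark the matches as read on the printed strand.
Icam1 (chr9:21015690-21015939, + strand): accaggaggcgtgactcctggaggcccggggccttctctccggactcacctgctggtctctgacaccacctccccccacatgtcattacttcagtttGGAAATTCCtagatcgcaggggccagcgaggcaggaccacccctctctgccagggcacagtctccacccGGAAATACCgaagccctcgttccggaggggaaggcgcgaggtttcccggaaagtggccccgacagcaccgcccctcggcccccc
Madcam1 (chr10:79664309-79664558, + strand): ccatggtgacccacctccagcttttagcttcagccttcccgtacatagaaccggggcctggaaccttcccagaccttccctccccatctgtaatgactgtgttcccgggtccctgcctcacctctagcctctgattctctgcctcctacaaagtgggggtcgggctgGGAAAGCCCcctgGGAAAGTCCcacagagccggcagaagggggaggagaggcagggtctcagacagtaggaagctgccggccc
Sele (chr1:164047984-164048233, + strand): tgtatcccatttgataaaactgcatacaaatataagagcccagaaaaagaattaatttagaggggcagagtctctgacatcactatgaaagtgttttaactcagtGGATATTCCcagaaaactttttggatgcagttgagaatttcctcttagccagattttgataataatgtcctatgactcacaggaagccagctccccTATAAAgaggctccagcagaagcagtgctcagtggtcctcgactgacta
Selp (chr1:164115014-164115263, + strand): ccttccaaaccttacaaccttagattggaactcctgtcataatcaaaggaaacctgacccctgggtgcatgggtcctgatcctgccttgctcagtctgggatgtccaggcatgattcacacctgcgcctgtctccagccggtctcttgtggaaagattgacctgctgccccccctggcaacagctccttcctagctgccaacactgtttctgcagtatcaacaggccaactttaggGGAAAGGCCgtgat
Itgam (chr7:128062390-128062639, + strand): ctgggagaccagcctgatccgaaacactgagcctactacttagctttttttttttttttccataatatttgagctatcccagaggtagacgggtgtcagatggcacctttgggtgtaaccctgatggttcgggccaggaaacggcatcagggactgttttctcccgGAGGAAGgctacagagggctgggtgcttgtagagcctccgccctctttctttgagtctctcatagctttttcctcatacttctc

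The *Icam1* window held a kappaB-type match on both strands at 153 to 145 bases before the start and another at 84 to 76. *Madcam1* had matches at 83 to 75 and 70 to 62, and *Selp* had one at 14 to 6. *Sele* had one at 145 to 137 together with a TATA box at 49 to 44. In *Itgam* the letters found were the PU.1-type motif, at 84 to 78. The kappaB-type motif was present in 15.6% of the 27025 promoters of the same length, the PU.1-type motif in 10.4% and the TATA box in 13%, so each is common, and a match is a description of letters and not of binding. None of the 3 motifs was found in the windows of *Itga4* and *Itgb7*.

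Levels were expressed as CPM, the counts of a gene per 1000000 counts of its library after TMM scaling. Among the ligands, *Vcam1* had the highest CPM, with a lowest, median and highest level of 8.93, 26.1 and 183 over the 160 samples (chr3:116109949-116129688, minus strand, GRCm38). *Icam1* lay at 3.00, 9.81 and 74.9 (chr9:21015985-21028817, plus strand). These immunoglobulin-type ligands were therefore detected in every library.

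The selectins and the gut addressin were lower. *Selp* was at 1.00, 3.97 and 122 CPM (chr1:164115264-164150026) and *Madcam1* at 0.183, 1.95 and 14 (chr10:79664559-79668537). *Sele*, next to *Selp* on the same strand (chr1:164048234-164057677), was at 0, 0.619 and 31.9. *Sele* was the member closest to the detection limit, since 3 libraries had no count and 37 had at most 3, and 3 counts stand for 0.15 to 0.69 CPM in these libraries.

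Among the integrin subunits, *Itga4*, the alpha chain shared by the gut homing integrin and the VCAM-1 receptor, was the most abundant by CPM at 23.3, 59.7 and 185 (chr2:79255426-79333123). *Itgam*, the alpha chain of Mac-1 on neutrophils and macrophages, ranged most widely on the linear scale, at 6.22, 25.6 and 915 (chr7:128062640-128118491). *Itgb2*, the common beta chain of LFA-1 and Mac-1, was at 5.10, 18.8 and 347 (chr10:77530252-77565708). *Itgal*, the LFA-1 alpha chain found on most leukocytes, was at 3.95, 12.6 and 105 (chr7:127296260-127335138), and *Itgb7*, the beta chain of the gut homing integrin, at 2.04, 8.09 and 33.7 (chr15:102215995-102231944, minus strand). *Itga4* overlaps *Cerkl* and *Selp* overlaps 2 counted noncoding genes on the other strand, and the strand setting of the counting was not given in the sources used here.

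**Figure D1:**
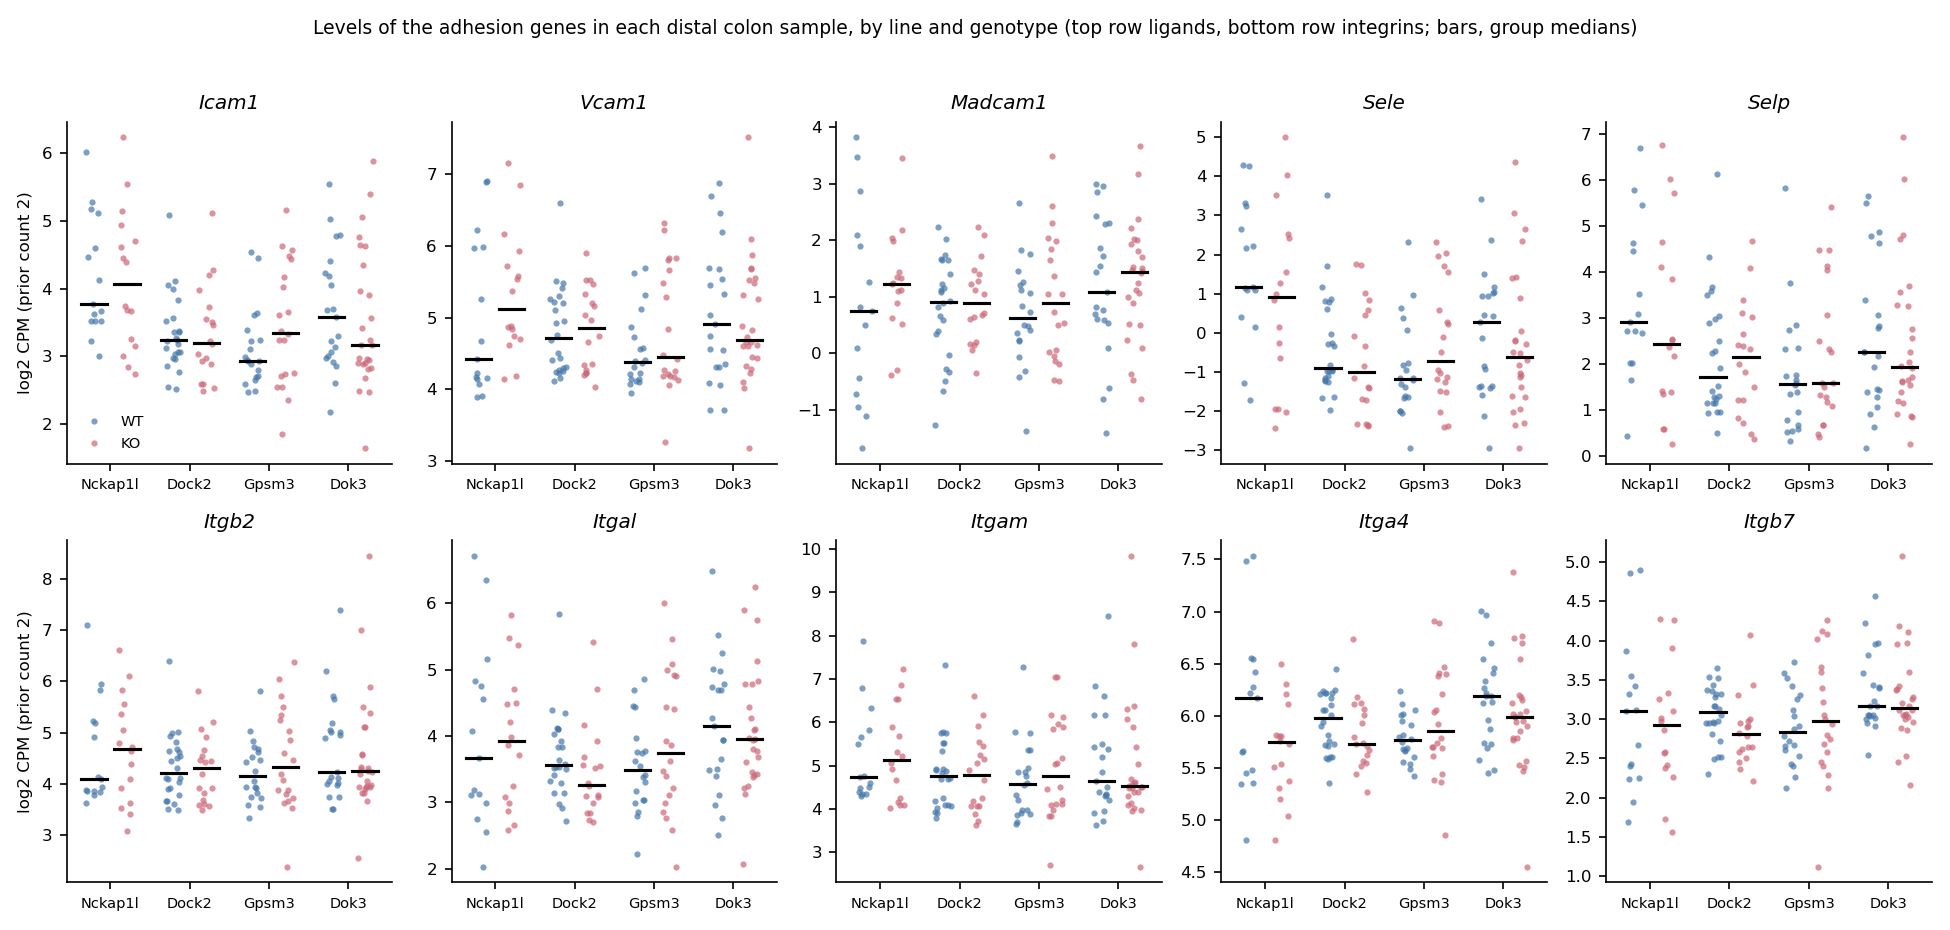
Each point is 1 distal colon sample, placed by line on the horizontal axis and by log2 CPM (prior count 2) on the vertical axis, with WT in blue, KO in red and a bar at each group median. KO and WT overlapped in every line for all 10 genes, and single samples such as the *Dok3* KO at 915 CPM of *Itgam* stood far above their group.

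Genes can be compared with each other only per length. Per kilobase of merged exons, the median level was 6.16 CPM for *Itgb2*, 5.09 for *Itgam*, 4.27 for *Itga4*, 2.95 for *Vcam1*, 2.92 for *Itgb7*, 2.25 for *Icam1*, 1.92 for *Itgal*, 1.36 for *Madcam1*, 0.900 for *Selp* and 0.212 for *Sele*. The integrin chains thus took 4 of the 5 upper places. Apart from *Itga4* above *Vcam1* and *Selp* above *Sele*, neighbours in this order differed by less than the smaller of their SDs within groups.

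Group medians differed least for the gut homing chains and most for *Sele*. The highest of the 8 group medians was 1.29 times the lowest for *Itgb7* (8.86 CPM in *Dok3* WT, 6.86 in *Dock2* KO) and 1.37 times for *Itga4* (72.6 and 53.0 in the same groups). For *Itgb2* (25.5 and 17) and *Itgam* (35.2 and 22.8) the ratios were 1.5 and 1.54, with *Nckap1l* KO highest in both, and for *Itgal* (17.6 in *Dok3* WT, 9.49 in *Dock2* KO) it was 1.85. All 5 ligands had their lowest group median in *Gpsm3* WT. The ratio there was 1.70 for *Vcam1*, 1.82 for *Madcam1*, 2.27 for *Icam1*, 2.61 for *Selp* and 6.83 for *Sele*, and the highest group was one of the *Nckap1l* groups except for *Madcam1* (2.58 CPM in *Dok3* KO, 1.42 in *Gpsm3* WT). Each group's range overlapped that of every other group for all 10 members.

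Subunits that form 1 receptor were compared per length within each sample. The ratio of *Itgam* to *Itgal*, the alpha chains that compete for *Itgb2*, had a median of 2.86 (range 0.963 to 15.8) and was above 1 in 159 of 160 samples. *Itgb2* against the sum of both alpha chains had a median of 0.877 (0.518 to 1.34) and exceeded 1 in 19 samples. No other alpha chain entered this sum. All ratios given here rest on the merged exon lengths, so whether a value near 1 lies above or below it depends on that choice. *Itga4* exceeded *Itgb7* in 153 samples (median ratio 1.44, range 0.816 to 2.89). Among the ligands, *Madcam1* was below *Vcam1* in every sample (median ratio 0.416, range 0.0676 to 0.859). *Icam1* exceeded *Vcam1* in 35 samples (median 0.742, range 0.365 to 2.37) and *Selp* exceeded it in 17 (median 0.305, range 0.0951 to 2.31). In the *Nckap1l* WT group the *Icam1* to *Vcam1* ratio was above 1 in 10 of 15 samples.

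The members varied more within groups than most genes. The SD of log2 CPM within line and genotype was 0.466 for *Itga4*, 0.623 for *Itgb7*, 0.807 for *Vcam1*, 0.836 for *Icam1*, 0.916 for *Itgb2*, 0.940 for *Itgal*, 1.09 for *Madcam1*, 1.10 for *Itgam*, 1.56 for *Selp* and 1.63 for *Sele*. The median over the 14514 genes with a mean log2 CPM of at least 1 was 0.288, and the members lay between percentiles 75.4 and 99.2 of these. *Sele* and *Madcam1* were themselves below that level, and the part of low counts in their SD was not tested. The selectins and *Itgam* spread most and the gut homing integrin chains least. Differences between the 8 groups of line and genotype took 2.87% (*Itgam*) to 16.2% (*Sele*) of each member's variance, against a median of 9.41% over the same 14514 genes.

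The highest values came from few libraries. *Dok3* KO replicate 17 had the highest level of *Vcam1*, *Selp*, *Itgb2*, *Itgam* and *Itgb7* among all 160 samples and of all 10 members in its group. Its neutrophil markers summed to 9000 CPM, against a median of 64.3 over all samples, and its colon epithelium markers to 2210 CPM, against 10100. *Nckap1l* KO replicate 5 was highest in *Icam1* and *Sele* and carried 6290 CPM of skin markers. *Nckap1l* WT replicate 10 was highest in *Itgal* and *Itga4*, and *Nckap1l* WT replicate 8 in *Madcam1*. Within their own groups, *Nckap1l* KO replicate 5 and *Nckap1l* WT replicate 10 were each highest in 8 members, ligands and integrin chains among them. *Nckap1l* WT replicate 8 led its group in the ligands *Madcam1* and *Sele* only. High ligand and high integrin levels thus fell together in these libraries, except in that last one.

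Whether loss of each driver gene altered the members was examined by comparing KO with WT within each line (edgeR quasi-likelihood test, Benjamini-Hochberg adjustment over all genes tested, threshold 0.05). No member passed in any line with edgeR, DESeq2 or limma-voom, nor under any other setting tried. Few genes passed at all, namely 0% of the 17947 genes tested in the *Nckap1l* line, 0.034% of 17648 in *Dock2*, 0.00569% of 17560 in *Gpsm3* and 0% of 17612 in *Dok3*. At an unadjusted p under 0.05, the count of members was 1 of 10 in *Nckap1l*, 0 of 10 in *Dock2*, 3 of 9 in *Gpsm3* and 0 of 10 in *Dok3*, against 4.48%, 5.12%, 4.86% and 2.18% of all genes. By DESeq2 39, 157, 8 and 6 genes passed in these lines and by limma-voom 0, 0, 1 and 0, with no member among them.

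In the *Nckap1l* line, whose deleted gene encodes Hem1, a blood cell subunit of the WAVE complex that drives actin assembly, the ligands overlapped fully between genotypes. *Icam1* lay at 6.55, 17.1 and 74.9 CPM (lowest, median, highest) in KO and 7.90, 13.6 and 64.5 in WT, with a log2 fold change of 0.07 (SE 0.36). *Vcam1* was at 17.6, 35.3 and 143 in KO and 14.8, 21.3 and 120 in WT (0.21, SE 0.37). *Selp* was at 1.08, 5.35 and 108 against 1.23, 7.40 and 104 (-0.16, SE 0.68). Each of these differences was smaller than its SE, and *Sele* (-0.20, SE 0.69) and *Madcam1* (-0.23, SE 0.51) were no different in that respect.

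*Itga4* had the lowest p of the *Nckap1l* line. Its levels were 27.9, 53.5 and 90.1 CPM in KO and 27.9, 71.8 and 185 in WT, so the highest values were those of WT while the ranges overlapped (log2 fold change -0.56, SE 0.24, unadjusted p = 0.029, edgeR adjusted p = 1). *Itgam* was at 16.2, 35.2 and 150 in KO and 19.6, 26.4 and 233 in WT (-0.04, SE 0.41). The other integrin chains differed by -0.03 (*Itgb2*), -0.35 (*Itgal*) and -0.27 (*Itgb7*). Over the 10 members the median log2 fold change was -0.18, against 0.01 over all genes.

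The sample numbers of the *Nckap1l* line fell into 3 runs, referred to as blocks, and the members differed in direction between them. Within block 1 (6 KO, 8 WT), 9 of 10 members were higher in KO with a median log2 fold change of 1.13, and 5 had an unadjusted p under 0.05, against 6.49% of all genes in that direction. These were *Icam1* (0.96, SE 0.38), *Vcam1* (1.37, SE 0.58), *Selp* (1.53, SE 0.70), *Itgb2* (1.14, SE 0.45) and *Itgam* (1.18, SE 0.44), with adjusted p values of 0.421 to 0.479. *Itga4* was the exception at -0.07. Within block 2 (5 KO, 4 WT) all 10 were lower in KO, with a median of -0.85 and a lowest unadjusted p of 0.0883. Within block 3 (5 KO, 3 WT) the 9 tested members were lower, led by *Itga4* (-0.99, SE 0.25, unadjusted p = 0.00436, adjusted p = 0.635) and *Itgb7* (-0.93, SE 0.32, unadjusted p = 0.0209, adjusted p = 1). The difference of the genotype effect between blocks itself was not called for any member by edgeR. Its lowest p was that of *Vcam1* (unadjusted p = 0.0413, adjusted p = 0.744), the only member under 0.05, against 6.61% of genes at that unadjusted limit and 0% after adjustment.

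**Figure D2:**
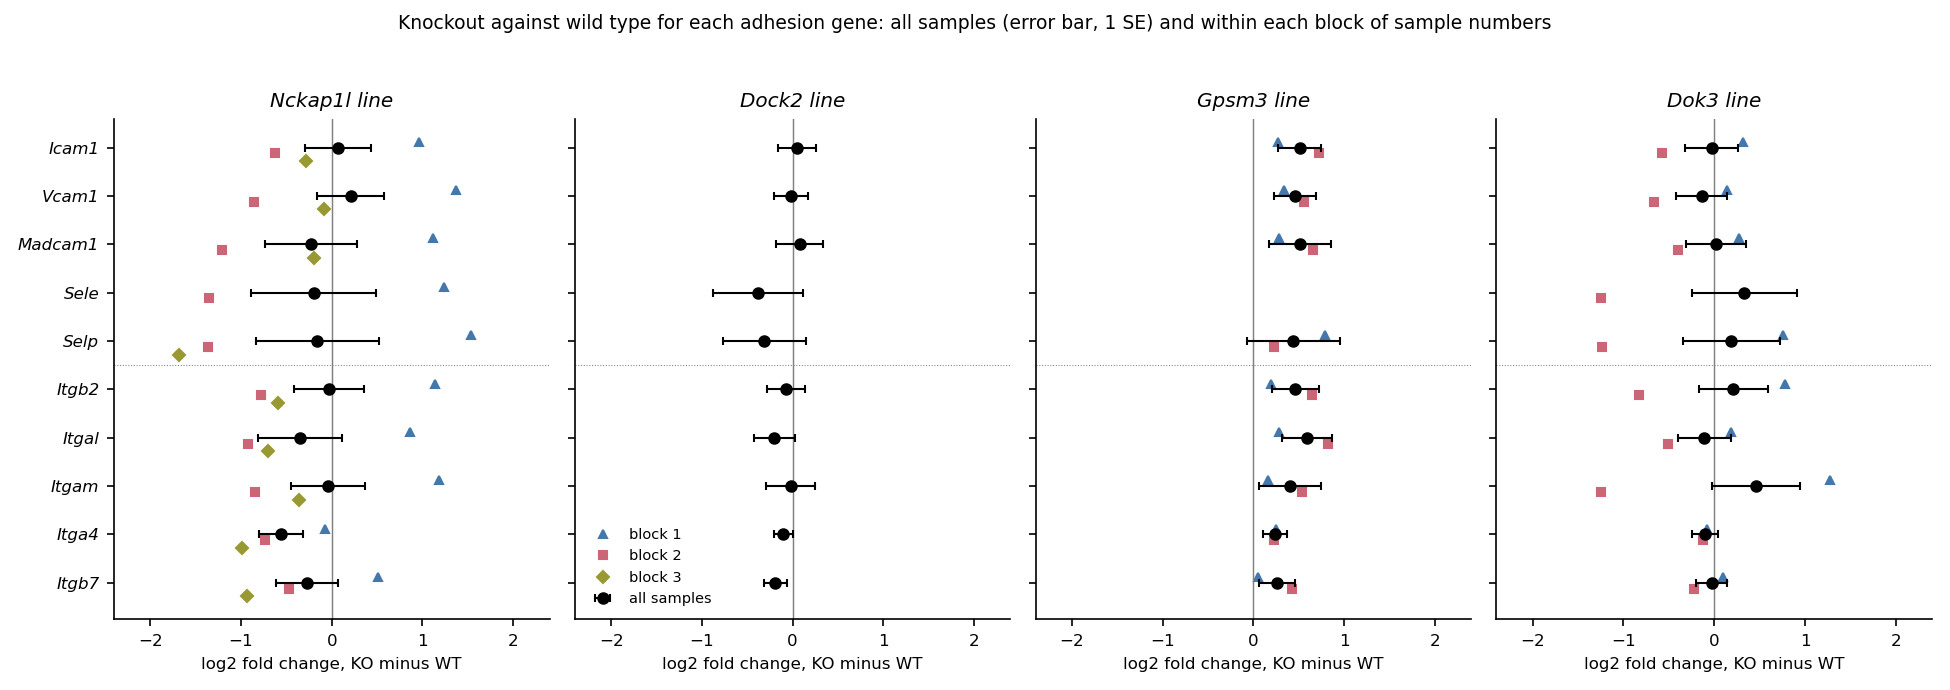
Log2 fold change of KO against WT (horizontal axis) for each adhesion gene (vertical axis, ligands above the dotted line, integrin chains below) in the 4 lines, with black points and bars for all samples and 1 SE, and coloured marks for the blocks of sample numbers. In the *Nckap1l* line 9 of 10 genes were above 0 in block 1, all but *Itga4*, and every gene tested was below 0 in blocks 2 and 3. In the *Dok3* line 8 of 9 tested genes were above 0 in block 1 and all 10 below 0 in block 2, whereas all 9 tested genes of the *Gpsm3* line were above 0 in both of its blocks.

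Skin marker RNA followed the same division. In block 1 of the *Nckap1l* line, 6 of 6 KO and 7 of 8 WT samples exceeded 100 CPM of skin markers, in block 2 the count was 1 of 5 and 0 of 4, and in block 3 0 of 5 and 1 of 3, so block and skin RNA largely cannot be told apart. In the samples over 100 CPM the median levels in KO and WT were 24.2 and 13.1 CPM for *Icam1*, 52.6 and 17.7 for *Vcam1*, 5.59 and 2.10 for *Sele*, and 25 and 6.94 for *Selp*. The integrin chains *Itgb2* (40.8 and 14.5) and *Itgam* (59.4 and 25.2) had the same order, with KO above WT. In the samples up to 100 CPM the order of the medians was the opposite, with 9.45 and 24 for *Icam1*, 29.2 and 62.4 for *Vcam1*, 16.9 and 30.1 for *Itgb2* and 25.2 and 45.1 for *Itgam*.

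Without the samples with skin markers, 9 KO and 7 WT mice remained in the *Nckap1l* line, a split chosen after the data were seen. All 10 members were then lower in KO, with log2 fold changes of -0.85 to -3.29 and a median of -1.35, and 8 had an unadjusted p under 0.05, against 8.75% of all genes in that direction, while the edgeR adjusted p values were 0.364 to 0.388. *Sele* was at 0.057, 0.509 and 2.83 CPM in KO and 0.176, 4.38 and 19.3 in WT (-3.29, SE 0.98). *Selp* was at 1.08, 2.49 and 17.2 in KO and 1.23, 11.4 and 104 in WT (-3.06, SE 0.88). The lowest samples of both genotypes were alike, and the genotypes parted at the median and the upper end.

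*Itga4* was at 27.9, 55.6 and 90.1 CPM in these KO mice and 44.4, 85.7 and 185 in these WT mice (-1.01, SE 0.32), *Madcam1* differed by -1.36 (SE 0.48) and *Itgal* by -1.47 (SE 0.61). *Icam1* (-1.01, SE 0.48) and *Vcam1* (-0.85, SE 0.42) had an unadjusted p above 0.05. The part of skin RNA, block and treatment in these differences was not tested. With WT replicate 10, which had the highest *Itgam* of the line, left out of this subset as well, all 10 members stayed lower in KO, with a median of -0.72. The count with an unadjusted p under 0.05 then fell from 8 to 3, namely *Sele* (-2.54, SE 1.03), *Selp* (-2.12, SE 0.90) and *Itga4* (-0.72, SE 0.32), against 2.62% of all genes in that direction, with edgeR adjusted p values of 0.793. In the whole line, with the samples with skin markers kept, leaving out that replicate alone put 9 of 10 members above 0, with *Itga4* at -0.34.

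**Figure D3:**
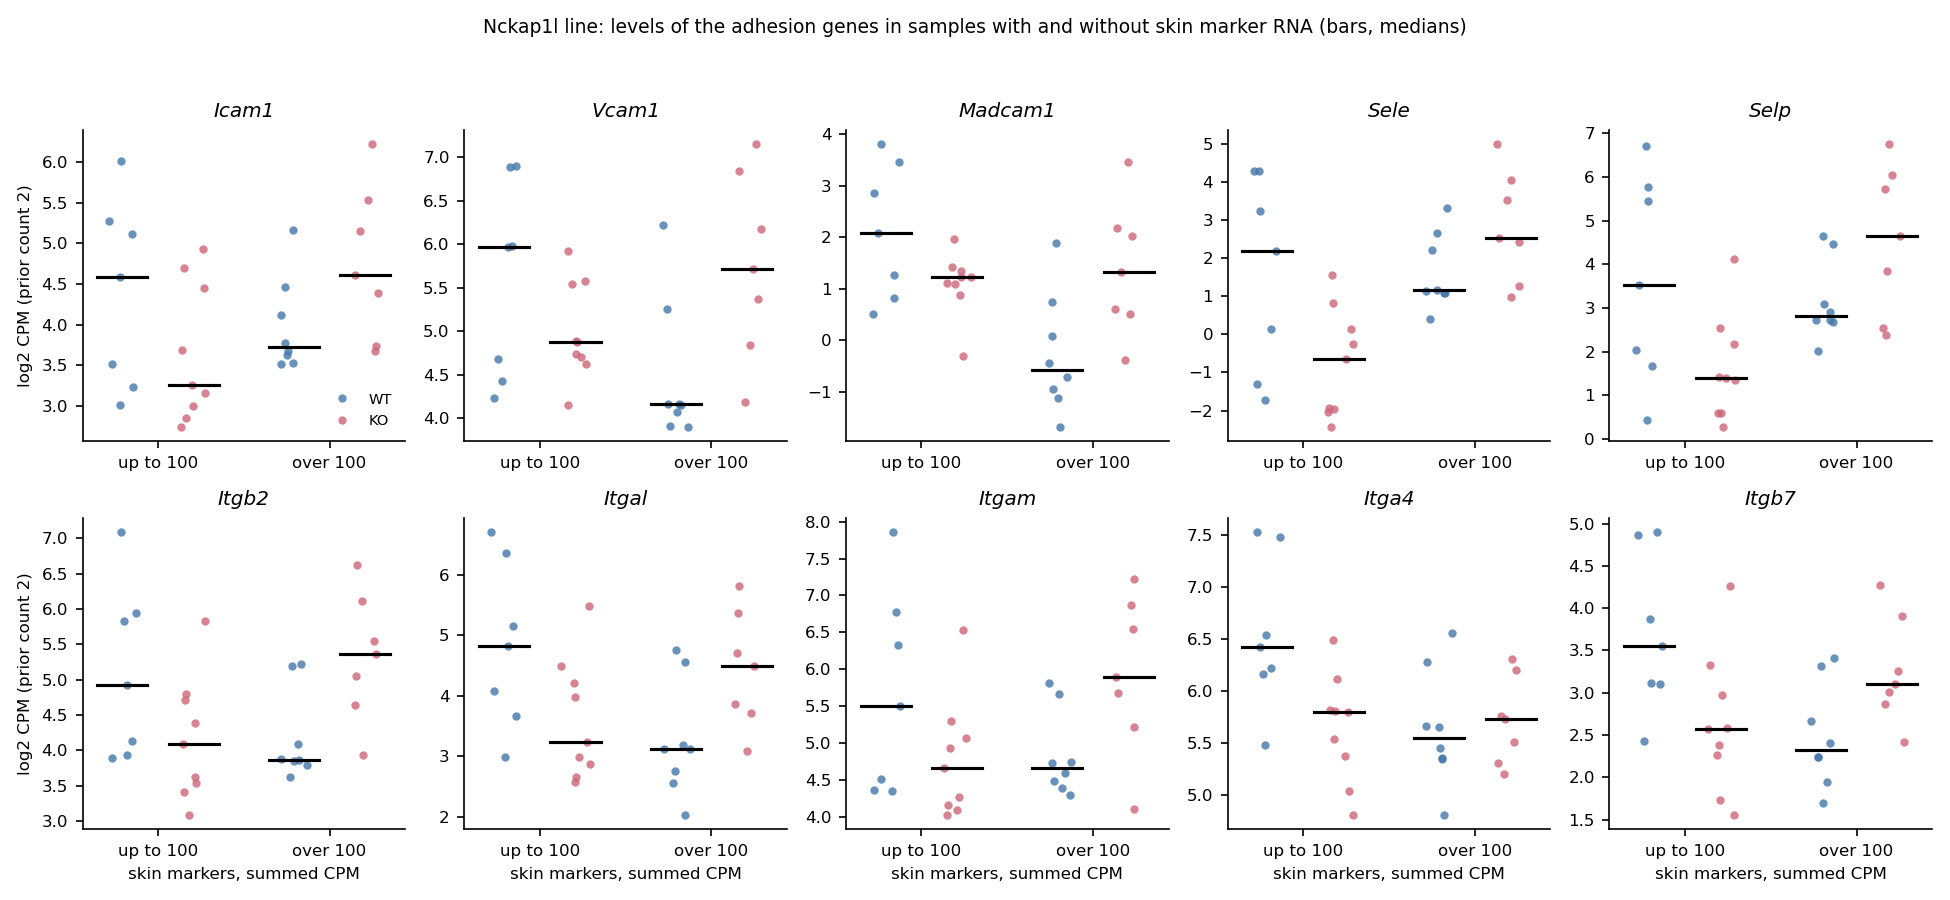
Log2 CPM (prior count 2) of each adhesion gene in the *Nckap1l* line, with samples divided by a summed skin marker level up to or over 100 CPM on the horizontal axis, WT in blue, KO in red and bars at the medians. The KO median lay below the WT median in the samples up to 100 CPM and above it in the samples over 100 CPM for all 10 genes.

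In the *Dock2* line, whose deleted gene encodes a Rac exchange factor needed for lymphocyte migration, the log2 fold changes lay between -0.38 (*Sele*, SE 0.50) and 0.08 (*Madcam1*, SE 0.26), with a median of -0.09. *Itgb7* was nearest to the threshold, at 4.5, 6.86 and 16.7 CPM in KO and 4.78, 8.38 and 12.4 in WT (-0.19, SE 0.13, unadjusted p = 0.137, adjusted p = 1). *Selp* was at 1.17, 4.38 and 25.6 in KO and 1.30, 3.21 and 69.9 in WT (-0.31, SE 0.46). The direction for *Selp* came from WT replicate 13, which had the highest *Itgam* of the line, 2370 CPM of neutrophil markers and under 10000000 counts. Without it *Selp* was at 0.21 (SE 0.37) and *Sele* at 0.16 (SE 0.43). Without the samples with skin markers all 9 tested members were negative, *Itgb7* among them at -0.32 (SE 0.13, unadjusted p = 0.0172, edgeR adjusted p = 0.698).

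In the *Gpsm3* line, whose deleted gene encodes a regulator of inhibitory G protein signalling in myeloid cells, all 9 tested members had higher fitted levels in KO, with a median log2 fold change of 0.46, against 0.00 over all genes. *Sele* was below the filter on low counts. *Icam1* was at 3.50, 10.1 and 35.4 CPM in KO and 5.45, 7.53 and 23.2 in WT (0.51, SE 0.24, unadjusted p = 0.0432). *Vcam1* was at 9.49, 21.7 and 79.7 in KO and 15.3, 20.7 and 51.5 in WT (0.46, SE 0.23, unadjusted p = 0.0483). *Itgal* was at 3.95, 13.3 and 64.1 in KO and 4.54, 11.1 and 28.9 in WT (0.59, SE 0.28, unadjusted p = 0.0437). In each the KO mice reached both lower and higher than the WT mice, and medians differed less than the upper ends.

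These 3 of 9 members stand against 3.35% of all genes higher in KO at that unadjusted limit, and their edgeR adjusted p was 0.937. *Madcam1* (0.51, SE 0.34), *Itgb2* (0.46, SE 0.26), *Selp* (0.44, SE 0.51), *Itgam* (0.40, SE 0.34), *Itgb7* (0.26, SE 0.20) and *Itga4* (0.24, SE 0.13) had an unadjusted p above 0.05. Both blocks of the line gave 9 of 9 positive values, with medians of 0.27 and 0.56, and the difference between blocks had a lowest unadjusted p of 0.331, against 7.42% of genes under the unadjusted and 0.336% under the adjusted limit. Without the samples with skin markers 4 members had an unadjusted p under 0.05, against 4.59% of genes in that direction. The difference for *Selp* depended on WT replicate 14, which had 1030 CPM of neutrophil markers. Without it *Selp* was at 1.24 (SE 0.43, unadjusted p = 0.00676), 7 members were under that limit, against 5.82% of genes, and the adjusted p values were at least 0.524. The pan-leukocyte markers had medians of 259 CPM in KO and 245 in WT, and with their level as a covariate the members lay between -0.08 and 0.13.

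In the *Dok3* line, whose deleted gene encodes an adaptor that restrains signalling in B cells and myeloid cells, the log2 fold changes lay between -0.14 (*Vcam1*, SE 0.28) and 0.46 (*Itgam*, SE 0.49), with a median of -0.01. *Itgam* was at 6.22, 22.8 and 915 CPM in KO and 12.3, 25.1 and 350 in WT. *Itgb2* was at 5.79, 18.9 and 347 in KO and 11.3, 18.8 and 166 in WT (0.21, SE 0.38). The medians were nearly equal, and the positive values came from 1 library. Without KO replicate 17 all 10 members were negative, with *Itgam* at -0.46 (SE 0.37), *Itgb2* at -0.34 (SE 0.30) and *Selp* at -0.39 (SE 0.48) instead of 0.19 (SE 0.53).

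The *Dok3* samples fell into 2 blocks, and part of this line had received a lower DSS dose, though for which samples was not given in the sources used here. In block 1 (17 KO, 13 WT), which held that library, 8 of 9 tested members were positive, led by *Itgam* at 1.28 (SE 0.65). In block 2 (9 KO, 8 WT) all 10 were negative, with a median of -0.62 and *Itgam* at -1.25 (SE 0.60), *Sele* at -1.25 (SE 0.60) and *Selp* at -1.24 (SE 0.61). The difference between blocks was -2.52 for *Itgam* (SE 0.98, unadjusted p = 0.0135) and -1.60 for *Itgb2* (SE 0.78, unadjusted p = 0.0449), each with an edgeR adjusted p of 0.705. Of all genes 6.32% were under the unadjusted and 0% under the adjusted limit.

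Genes that act with the members were taken as 5 lists of 62 genes, namely selectin ligand synthesis, other vascular adhesion molecules, other integrin subunits, the machinery that switches integrins on from inside the cell, and gut and node homing receptors with their chemokines. None was called for genotype in any line by edgeR, and 19 of 218 tests (8.72%) had an unadjusted p under 0.05. These were 6 of 54 in *Nckap1l*, 7 of 55 in *Dock2*, 6 of 54 in *Gpsm3* and 0 of 55 in *Dok3*, against 4.48%, 5.12%, 4.86% and 2.18% of all genes. Median log2 fold changes of the lists lay between -0.16 and 0.17, against 0.00 to 0.01 in size over all genes.

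*Rasgrp2*, the exchange factor that activates Rap1 ahead of integrins, had the lowest p of the activation list in 2 lines, at -0.46 (SE 0.14, unadjusted p = 0.00299, edgeR adjusted p = 0.826) in *Nckap1l* and -0.27 (SE 0.08, unadjusted p = 0.00165, adjusted p = 0.32) in *Dock2*. In that list the lowest p belonged to the kinase gene *Stk4* in *Gpsm3* (0.07, SE 0.04) and to the adaptor gene *Skap1* in *Dok3* (-0.31, SE 0.21). Among homing receptors and chemokines it was *Ccr7*, the node homing receptor, at -1.44 (SE 0.65) in *Nckap1l* and 0.76 (SE 0.33) in *Gpsm3*, *S1pr1*, the receptor by which lymphocytes exit tissue, at -0.36 (SE 0.11) in *Dock2*, and the mucosal chemokine *Ccl28* at 0.38 (SE 0.23) in *Dok3*.

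Among other integrin subunits the lowest p belonged to *Itga9* in *Nckap1l* (-0.29, SE 0.10), *Itgb8* in *Dock2* (-0.38, SE 0.17) and *Dok3* (-0.37, SE 0.21), and *Itgax*, the CD11c chain of dendritic cells, in *Gpsm3* (0.44, SE 0.16). In the selectin ligand list it was the sulfotransferase gene *Chst4* in *Nckap1l* (0.37, SE 0.31), the mucin-type ligand gene *Glycam1* in *Dock2* (-0.63, SE 0.31), *Selplg*, which encodes the P-selectin ligand PSGL-1, in *Gpsm3* (0.58, SE 0.27), and the sialyltransferase gene *St3gal4* in *Dok3* (0.59, SE 0.39). For the other vascular molecules it was *Vwf* in *Nckap1l* (0.37, SE 0.22), *Icam2* in *Dock2* (-0.22, SE 0.10), *Cd47* in *Gpsm3* (0.21, SE 0.12) and *Jam2* in *Dok3* (-0.07, SE 0.10). All these values missed the adjusted threshold.

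The genotype effect was also compared between lines. Over all genes 0.69% passed the edgeR F test of the line by genotype terms and 5.68% had an unadjusted p under 0.05. No member passed. *Itga4*, negative in 3 lines and positive in *Gpsm3*, had the lowest p of the members (unadjusted p = 0.0097, adjusted p = 0.414), and it was also the only member under 0.05 with DESeq2 (unadjusted p = 0.00864, adjusted p = 0.458).

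Females were labelled in 2 lines, and the *Dok3* samples labelled male with the sex-linked genes of a female are not counted among them. No member was called between the sexes, against 0.178% of all genes in *Nckap1l* and 9.8% in *Dock2*, where 15.7% and 25.6% had an unadjusted p under 0.05. The Mac-1 and LFA-1 beta chain *Itgb2* was the 1 member under the unadjusted limit, lower in *Dock2* females (female minus male -0.42, SE 0.21, unadjusted p = 0.0465, adjusted p = 0.188), with *Itgam* beside it at -0.50 (SE 0.27). Without the samples with skin markers these were -0.64 for *Itgb2* (SE 0.22, edgeR adjusted p = 0.0362) and -0.86 for *Itgam* (SE 0.27, adjusted p = 0.022), so 2 of 9 tested members were called, against 9.79% of all genes in that direction. In *Nckap1l* the largest difference was that of *Sele*, at 1.17 (SE 0.70). It was -0.0 (SE 0.38) without the samples with skin markers and 0.05 (SE 0.88) among WT mice. Most females of this line were in block 1 and block 2 was all male, so sex, block and skin RNA largely cannot be told apart there. In the lists, *Glycam1* was called higher in *Dock2* females (2.21, SE 0.30, adjusted p = 4.32e-06) and *Rap1a* lower (-0.09, SE 0.03, adjusted p = 0.0459). The genotype effect was not called different between the sexes for any member, against 0% of genes in *Nckap1l* and 0.181% in *Dock2*, and the lowest p was that of *Selp* in *Nckap1l* (unadjusted p = 0.0525, adjusted p = 0.999).

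WT mice of the 4 lines were compared to describe the levels without a deletion. Collection day, DSS dose, strain, sex, skin RNA and experiment differed between lines and cannot be told apart from the line. The share of DSS-treated mice in each WT group was not given in the sources used here and cannot be told apart from the line either. Of the members 7 of 10 were called between lines by edgeR, against 41.8% of all genes. *Sele* (adjusted p = 0.000123) and *Icam1* (adjusted p = 0.000269) were the strongest, followed by *Itgal*, *Selp*, *Itga4*, *Vcam1* and *Itgb2*, whereas *Itgb7* (adjusted p = 0.0577), *Itgam* (0.092) and *Madcam1* (0.1) were not called. The *Sele* medians of *Gpsm3* WT (0.310 CPM) and *Dock2* WT (0.410 CPM) were near the floor, which limits its place in this order. The count was 3 with limma-voom (39.4% of genes), 3 among males (18.5%) and 9 without the samples with skin markers (22.4%).

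The largest differences lay between the *Gpsm3* and the *Nckap1l* WT mice. *Sele* was at 0, 0.310 and 4.86 CPM (lowest, median, highest) in *Gpsm3* WT and 0.176, 2.12 and 19.3 in *Nckap1l* WT, a log2 difference of -3.31 (SE 0.65, adjusted p = 0.000594). *Icam1* was at 5.45, 7.53 and 23.2 against 7.90, 13.6 and 64.5 (-1.37, SE 0.29, adjusted p = 0.00117). *Selp* was at 1.13, 2.84 and 56.5 against 1.23, 7.40 and 104 (-2.18, SE 0.62, adjusted p = 0.0114). The *Nckap1l* mice were higher at the median and at the top for each of these, although the ranges overlapped.

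In this contrast 8 of 10 members were called, all lower in *Gpsm3* WT, against 24.1% of all genes called and 14% called in that direction. *Itgal* (-1.18, SE 0.36), *Itgam* (-1.07, SE 0.41), *Itgb2* (-0.94, SE 0.33), *Vcam1* (-0.90, SE 0.31) and *Itga4* (-0.48, SE 0.18) completed the set. The count fell to 3 with limma-voom (9.87% of genes in that direction) and 2 among males (1.2%), and rose to 10 without the samples with skin markers (7.1%). *Dock2* WT were lower than *Nckap1l* WT in *Sele* (-2.32, SE 0.55), *Selp* (-1.45, SE 0.53) and *Icam1* (-1.03, SE 0.25), 3 of 10 members against 15.4% of genes and 8.91% in that direction. That count was 0 among males (0.0306% of genes in that direction) and 6 without the samples with skin markers (2.4%).

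*Dok3* WT were higher than *Gpsm3* WT in 6 of 10 members, namely *Itgal* (0.86, SE 0.31), *Vcam1* (0.76, SE 0.26), *Icam1* (0.74, SE 0.24), *Itgb2* (0.72, SE 0.28), *Itgb7* (0.51, SE 0.19) and *Itga4* (0.43, SE 0.15). Of all genes 30.4% were called and 18.2% in that direction. The count was 2 with limma-voom (12.5% of genes in that direction), 5 among males (15.7%) and 4 without the samples with skin markers (9.82%). Both selectins missed the threshold here. Against *Nckap1l* WT, *Dok3* WT were lower in *Sele* alone (-2.07, SE 0.63, adjusted p = 0.0205, 11.5% of genes called). No member was called between *Dok3* and *Dock2* WT (10.6% of genes) or between *Gpsm3* and *Dock2* WT (0.115%), and none of the members had an unadjusted p under 0.05 in these contrasts. These contrasts share their WT samples. Of the 55 list genes tested, 28 were called between *Gpsm3* and *Nckap1l* WT, all lower, against 24.1% of all genes. Between *Dok3* and *Gpsm3* WT 24 were called, all higher except 3 of the selectin ligand list, against 30.4% of all genes. Between *Dock2* and *Nckap1l* WT 7 were called, a smaller share than the 15.4% of all genes.

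**Figure D4:**
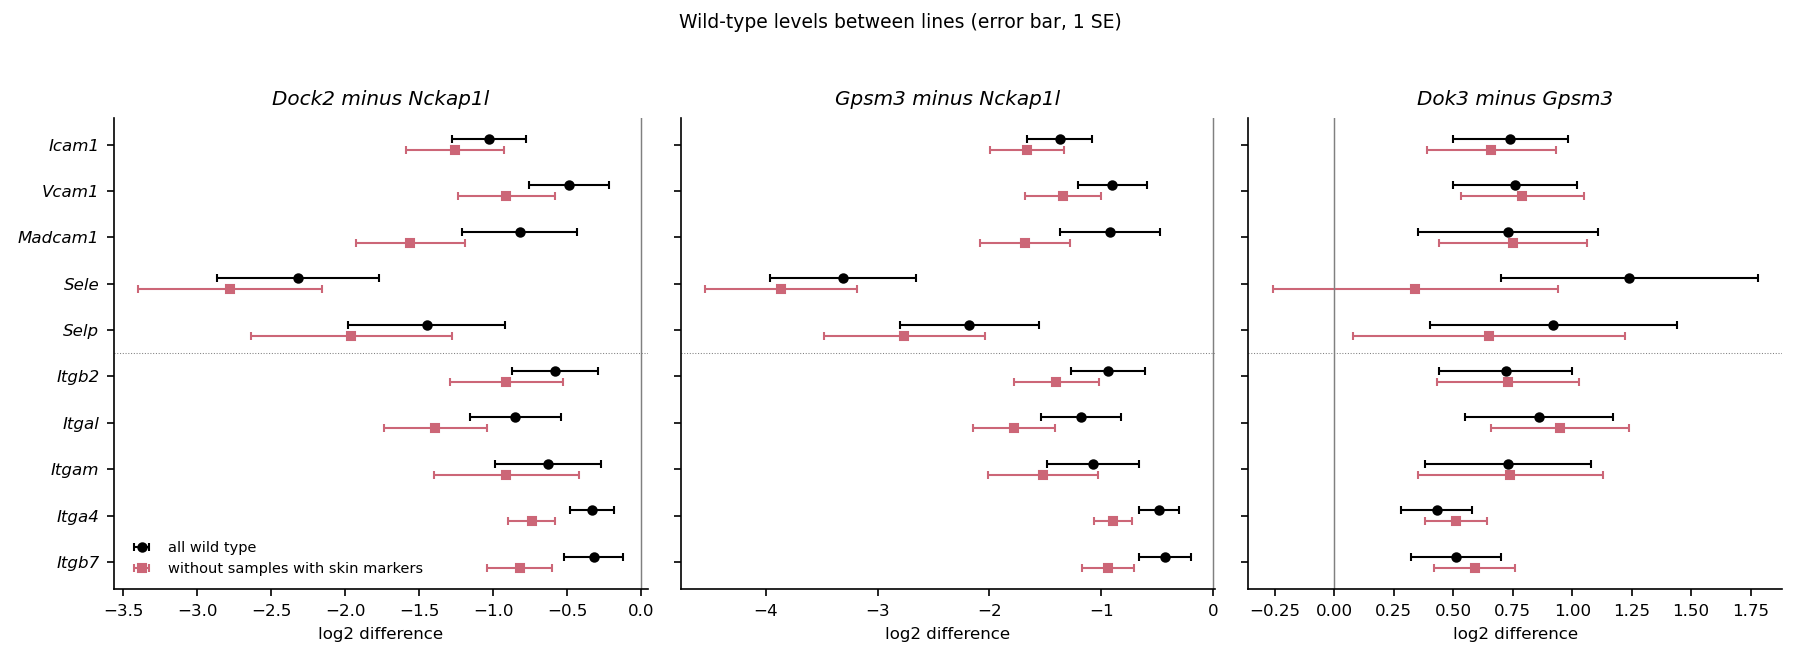
Log2 difference between WT mice of pairs of lines (horizontal axis) for each adhesion gene (vertical axis), with black points for all WT samples, red squares for WT samples without skin markers and bars of 1 SE. *Sele* and *Selp* had the largest differences against *Nckap1l* WT, and every point of the left and middle panels was below 0.

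Covariation of receptor partners was examined across the 160 samples after the mean of each line, genotype, sex and block was removed from log2 CPM. The 11 pairs fixed for this purpose all had positive correlations, each with a permutation p of 1e-05, the smallest that 100000 permutations can give, for Pearson's r and for Spearman's rho (adjusted p = 1e-05 over the 11 pairs). The subunits of Mac-1, *Itgam* and *Itgb2*, had r = 0.97 (rho 0.94, 0.96 without the 2 farthest samples), and those of LFA-1, *Itgal* and *Itgb2*, had r = 0.91 (rho 0.91, 0.92). The gut homing chains *Itga4* and *Itgb7* had r = 0.88 (rho 0.83, 0.86). Within the 8 blocks the lowest r was 0.89 for both *Itgb2* pairs and 0.50 for *Itga4* with *Itgb7*.

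Ligands followed the receptors. *Icam1* had r = 0.91 with *Itgam* (rho 0.88, 0.90 without the 2 farthest samples, at least 0.85 within blocks) and r = 0.86 with *Itgal* (rho 0.83, 0.85, at least 0.78). *Vcam1* with *Itga4* had r = 0.81 (rho 0.80, 0.78, at least 0.75). *Madcam1* with *Itgb7* was the loosest pair, at r = 0.70 (rho 0.70, 0.67), and in block 3 of the *Nckap1l* line it was -0.21, so the relation did not hold within every block. Between ligands, *Sele* with *Selp* had r = 0.92 (rho 0.88, 0.91, at least 0.76), *Sele* with *Icam1* 0.87 (rho 0.83, 0.86, at least 0.64) and *Vcam1* with *Madcam1* 0.85 (rho 0.88, 0.83, at least 0.79). The alpha chains *Itgal* and *Itgam* had r = 0.85 (rho 0.82, 0.85, at least 0.81).

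Over all 45 pairs r ranged from 0.51 to 0.97. Its median was 0.85 between ligands, 0.86 between integrin chains and 0.79 between a ligand and an integrin chain, so the kind of molecule made little division. The lowest values joined *Sele* and *Selp* with *Itga4* and *Itgb7* (0.51 to 0.60). All members share the library of a sample, so the pairs are not independent of each other.

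The same values were set against mean levels of 15 marker lists, giving 150 relations, of which 125 had an adjusted permutation p under 0.05. The share of all genes with such relations was not determined, so this count is not a trait of the members. By highest r, *Itgal* (0.97), *Itga4* (0.89), *Itgb7* (0.88) and *Madcam1* (0.86) followed the pan-leukocyte markers. *Itgb2* (0.97), *Itgam* (0.95), *Vcam1* (0.92) and *Icam1* (0.90) followed the monocyte and macrophage markers, and *Selp* (0.95) and *Sele* (0.87) the neutrophil markers. Other lists were close. *Itgb2* had 0.95 with the pan-leukocyte list, *Itgam* 0.94 with the neutrophil list and *Itgb7* 0.87 with the T cell list. The vessel ligands had higher r with the neutrophil list (0.77 to 0.95) than with the blood endothelium list (0.32 to 0.61). With the monocyte and macrophage list their r was 0.76 to 0.92, and with the fibroblast list 0.53 to 0.82. Within single blocks the endothelium values ranged from -0.12 to 0.91 for these ligands, whereas the neutrophil values ranged from 0.60 to 0.99. With the colon epithelium list all members had negative r (-0.33 to -0.67), and with the skin list r lay between -0.17 and 0.42, highest for *Sele*.

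**Figure D5:**
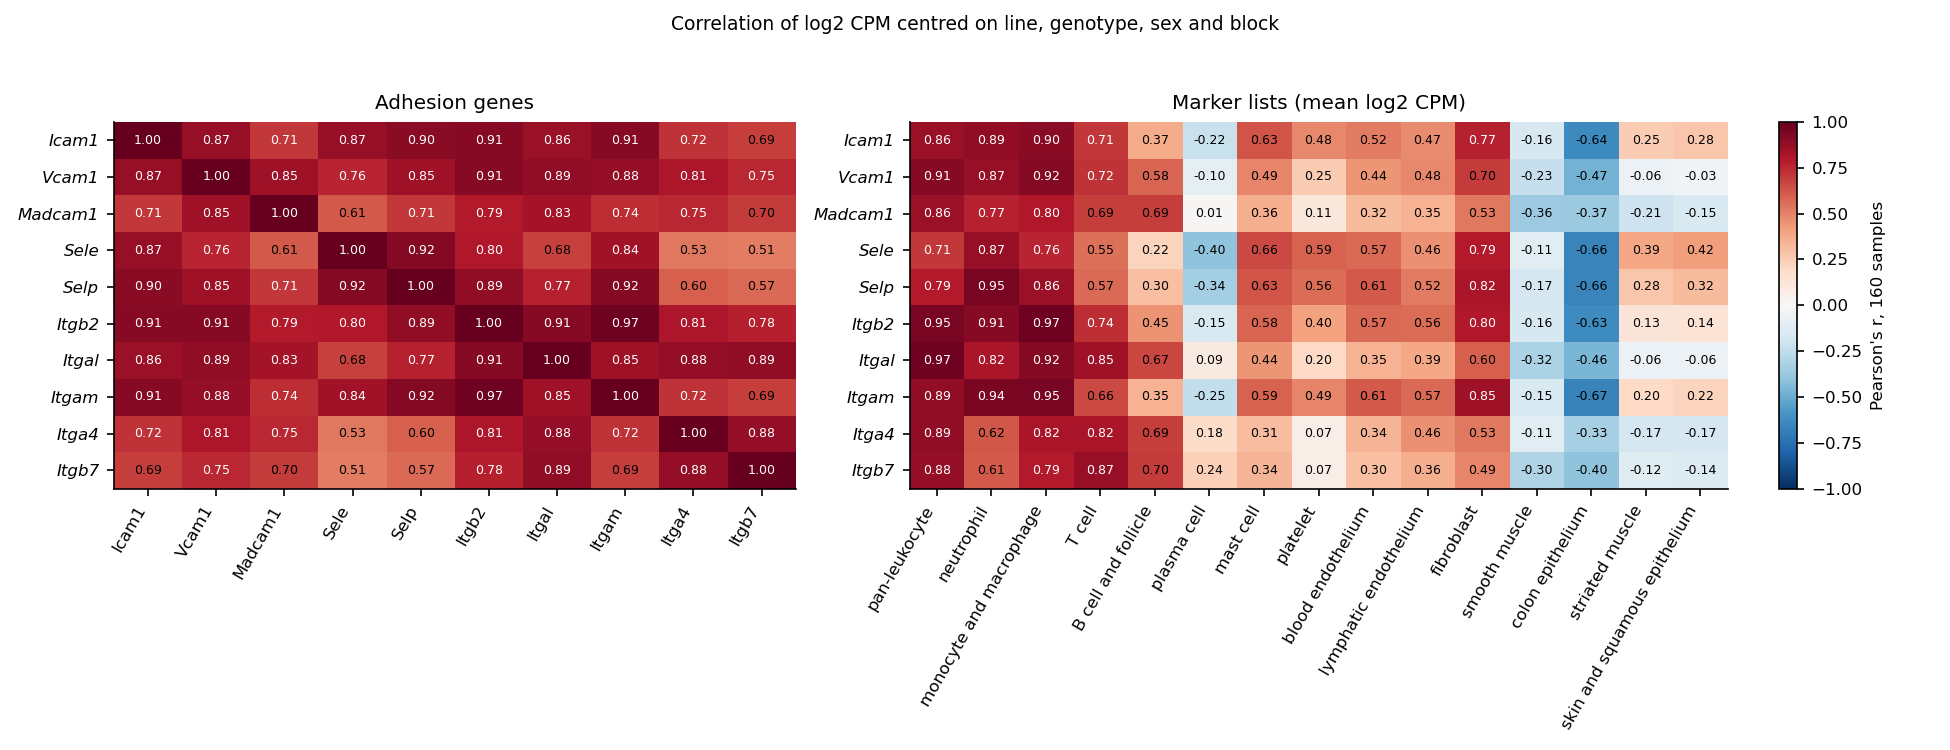
Pearson's r over 160 samples of centred log2 CPM, between the adhesion genes (left) and between each of them and the mean of 15 marker lists (right), with the colour scale running from -1 to 1. All pairs of adhesion genes were positive, and the pan-leukocyte, neutrophil and monocyte and macrophage columns held the highest values of the right panel.

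The genes most like each member were found by centred r among 14380 expressed genes (14381 for *Madcam1* and *Sele*). *Icam1* was nearest to *Il4ra* (0.95), *Cd47* (0.94) and *Csf2rb2* (0.94), and *Vcam1* to *Ctsc*, *Gsap* and *Ms4a6c* (0.92 each). The 3 genes most like *Madcam1* included *Rac2* (0.85), a GTPase gene of blood cells, and *Ms4a6c* (0.85). For the selectins, *Sele* was nearest to *Selp* (0.92), *Osmr* (0.91) and *St3gal1* (0.90), and *Selp* to *Clec4d*, *S100a9* and *S100a8* (0.94 each), of which the last 2 are abundant neutrophil genes.

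Among the integrin chains, *Itgb2* was nearest to *Spi1*, which encodes PU.1, and *Fcer1g* (0.98 each) and to *Lcp2* (0.97). *Itgal* was nearest to *Ptprc* (0.97), *Rac2* (0.96) and *Coro1a* (0.96), of the pan-leukocyte list. *Itgam* was nearest to *Pirb*, *Fcer1g* and *Itgb2* (0.97 each), so that its own beta chain ranked at place 3 among these genes. *Itga4* was nearest to *Dock10* (0.92), *Myo1g* (0.90) and *Arhgap15* (0.90), with *Itgb7* at rank 17, and *Itgb7* to *Arhgap45* (0.92), *Ikzf1* (0.92) and *Spn* (0.91), with *Itga4* at rank 19. The lists for the gut homing chains thus held genes of lymphocytes and other leukocytes, and those for *Itgam* and *Selp* genes of myeloid cells. Other partners lay further down. *Itgb2* was at rank 56 and *Icam1* at rank 153 for *Itgal*, and *Icam1* was at rank 137 for *Itgam*. *Vcam1* was at rank 121 for *Itga4*, and *Itgb7* at rank 415 for *Madcam1*. For these pairs many genes other than the partner had a higher r.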

How the data were processed

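RNA of distal colon from 160 mice was depleted of ribosomal RNA and sequenced as single reads. Per the labels and the submitters' processing notes, the authors aligned reads with STAR to mm10 and counted them per Ensembl gene with featureCounts of Subread. Versions and the strand setting are not given in the sources used here. The deposited values are raw counts of 39179 genes per sample, 1 file a sample, of which 37693 (96.2%) were matched to a symbol and held 99.67% of the counts. Gene coordinates are those of GRCm38.

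Each sample's group came from its labels. Fits used edgeR 4.0.16 (TMM, filterByExpr, robust quasi-likelihood F test) under R 4.3.3. Lines with labelled females had sex in the model, and p-values were adjusted by Benjamini-Hochberg over all genes tested, threshold 0.05. Log2 fold changes are KO minus WT. Runs of sample numbers in the labels were taken as blocks, since nothing in the labels names a batch. Correlations used log2 CPM with a prior count of 2 and 100000 permutations within cells of line, genotype, sex and block (numpy 2.4.6, pandas 2.3.3). DESeq2 1.42.0, limma 3.58.1 and sva 3.50.0 served as alternatives, as did other filters, scalings and subsets. The test scripts were tested on simulated data. Libraries of 4344988 to 19993833 counts set the precision, and 3 counts, 0.15 to 0.69 CPM, were taken as the floor. Comparing 1569 pairs of samples of the same group found none as alike as sampling noise allows.

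Named genes were the 10 members, in each of 5 lists the genes called or else the gene with the lowest p per line, the deleted genes, and the 3 genes most correlated with each member among those with a mean log2 CPM of at least 1. Pathway examples called only between WT lines are given as counts. A gene among those so correlated is not reported here. The members, lists and pairs were chosen with earlier results of these data known, so p-values of differences were not adjusted over a list alone. Those of correlations were adjusted within the 11 chosen pairs and the 150 chosen relations to marker lists, and are not independent of that choice. Samples were described with 15 marker lists, and the skin limit of 100 CPM was set after the data were seen. *Aif1* samples were not analysed here. Promoter windows came from RefSeq (GRCm38.p6).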

Additional observations from a re-analysis of the deposited data

How the results depend on the processing

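No member was called for genotype in any line under any alternative run. Of 584 alternative values of the members' genotype effects, 472 kept the reported direction and 112 turned, all of them short of the threshold before and after, so a direction of these effects is not stable and the cause of each turn was not tested. CPM on the library total in place of TMM moved no member's median by more than its SD over the 160 samples. That SD was larger than the median itself for most members, such as *Itgam* (81.9 and 25.6 CPM) and *Selp* (19.4 and 3.97). This check could therefore hardly fail, and no conclusion on the scaling is drawn from it. The 11 partner correlations stayed positive without the 2 farthest samples, without the samples with skin markers and without centring. Within blocks, *Madcam1* with *Itgb7* turned to -0.21 in block 3 of the *Nckap1l* line. Leaving out the samples with skin markers, the library highest in *Itgam* or both, and the tests between blocks and between sexes, were chosen after seeing the data. The low counts of *Sele* and *Madcam1* limit their values. *Sele* had too few counts to be tested in some subsets, and requiring 10 counts in every sample removed both genes. No *Nckap1l* library was under 10000000 counts, and outside the *Dok3* line no sample's sex markers differed from its label, so these alternatives gave no value there. No paired analysis was possible because the sample numbers do not pair KO with WT mice.

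For the difference of the genotype effect between lines, 137 genes were called as reported and 69 among males. For the genotype effect in the *Dock2* line, 6 genes were called as reported and 1 at 10 counts in every sample, 90 with 2 surrogate variables, 157 with DESeq2, 10 with the blood endothelium markers as a covariate, 0 among females, 0 with limma-voom, 1 among males, 28 without a filter, 41 with the pan-leukocyte markers as a covariate and 78 without the samples with skin markers. For the genotype effect in the *Dok3* line, 0 genes were called as reported and 6 with DESeq2, 14 without a filter and 16 within block 2. For the genotype effect in the *Gpsm3* line, 1 gene was called as reported and 0 at 10 counts in every sample, 8 with DESeq2, 29 without a filter, 0 within block 1, 0 within block 2 and 2 without the samples with skin markers. For the genotype effect in the *Nckap1l* line, 0 genes were called as reported and 88 with 2 surrogate variables, 39 with DESeq2, 8 without a filter, 18 with the pan-leukocyte markers as a covariate, 2 within block 1 and 26 within block 3. For the sex effect in the *Dock2* line, 1730 genes were called as reported and 356 among wild-type mice and 3188 without the samples with skin markers. For the sex effect in the *Nckap1l* line, 32 genes were called as reported and 224 with DESeq2, 9 among wild-type mice and 9 without the samples with skin markers. For the wild-type levels between lines, 7962 genes were called as reported and 3620 among males and 4272 without the samples with skin markers. For the sex effect in the *Dock2* line, 0 members were called as reported and 2 without the samples with skin markers. For wild-type *Dock2* minus *Nckap1l*, 3 members were called as reported and 0 among males and 6 without the samples with skin markers. For wild-type *Dok3* minus *Gpsm3*, 6 members were called as reported and 2 with limma-voom. For wild-type *Dok3* minus *Nckap1l*, 1 member was called as reported and 0 among males and 2 without the samples with skin markers. For wild-type *Gpsm3* minus *Nckap1l*, 8 members were called as reported and 3 with limma-voom and 2 among males. For the wild-type levels between lines, 7 members were called as reported and 3 with limma-voom and 3 among males.

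With DESeq2, the differences that turned were 0.22 for *Selp* in the *Dock2* line, -0.35 for *Itgb2* in the *Dok3* line, and 0.23 for *Selp* for females against males of the *Dock2* line. With limma-voom, the differences that turned were 0.45 for *Madcam1*, 0.04 for *Itgb2*, 0.01 for *Itgal* and 0.03 for *Itgam* in the *Nckap1l* line, 0.04 for *Vcam1* in the *Dock2* line, -0.31 for *Sele*, -0.12 for *Selp*, -0.13 for *Itgb2* and -0.10 for *Itgam* in the *Dok3* line, and 0.01 for *Itgb7* for wild type of *Dock2* against *Nckap1l*. With 2 surrogate variables, the differences that turned were 0.66 for *Madcam1*, 0.18 for *Itgb2*, 0.17 for *Itgal* and 0.18 for *Itgam* in the *Nckap1l* line, -0.01 for *Madcam1* and 0.00 for *Selp* in the *Dock2* line, -0.05 for *Itgam* in the *Gpsm3* line, and -0.01 for *Itgb2* in the *Dok3* line. With the pan-leukocyte markers as a covariate, the differences that turned were 0.78 for *Madcam1*, 0.05 for *Selp*, 0.29 for *Itgb2*, 0.32 for *Itgal*, 0.28 for *Itgam* and 0.08 for *Itgb7* in the *Nckap1l* line, 0.25 for *Vcam1*, 0.11 for *Sele*, 0.19 for *Selp*, 0.18 for *Itgb2*, 0.05 for *Itgal* and 0.24 for *Itgam* in the *Dock2* line, -0.04 for *Madcam1*, -0.01 for *Selp*, -0.02 for *Itgb2*, -0.08 for *Itgam* and -0.08 for *Itgb7* in the *Gpsm3* line, and -0.37 for *Sele*, -0.07 for *Selp*, -0.06 for *Itgb2* and -0.03 for *Itgam* in the *Dok3* line. With the blood endothelium markers as a covariate, the differences that turned were -0.01 for *Icam1* in the *Nckap1l* line, and -0.04 for *Madcam1*, -0.17 for *Selp*, -0.09 for *Itgb2* and -0.09 for *Itgam* in the *Dok3* line. With the sample-number block as a covariate, the differences that turned were 0.12 for *Madcam1*, 0.00 for *Sele*, 0.06 for *Selp*, 0.21 for *Itgb2* and 0.24 for *Itgam* in the *Nckap1l* line. Within block 1, the differences that turned were 1.12 for *Madcam1*, 1.24 for *Sele*, 1.53 for *Selp*, 1.14 for *Itgb2*, 0.86 for *Itgal*, 1.18 for *Itgam* and 0.51 for *Itgb7* in the *Nckap1l* line, and 0.32 for *Icam1*, 0.14 for *Vcam1*, 0.19 for *Itgal* and 0.10 for *Itgb7* in the *Dok3* line. Within block 2, the differences that turned were -0.62 for *Icam1* and -0.86 for *Vcam1* in the *Nckap1l* line, and -0.40 for *Madcam1*, -1.25 for *Sele*, -1.24 for *Selp*, -0.83 for *Itgb2* and -1.25 for *Itgam* in the *Dok3* line. Within block 3, the differences that turned were -0.28 for *Icam1* and -0.09 for *Vcam1* in the *Nckap1l* line. Among males, the differences that turned were -0.37 for *Icam1* and -0.26 for *Vcam1* in the *Nckap1l* line, and 0.05 for *Vcam1* in the *Dock2* line. Among females, the differences that turned were 0.73 for *Madcam1*, 1.17 for *Sele*, 1.52 for *Selp*, 0.69 for *Itgb2*, 0.12 for *Itgal* and 0.89 for *Itgam* in the *Nckap1l* line, and -0.08 for *Madcam1*, 0.41 for *Selp* and 0.26 for *Itgam* in the *Dock2* line. Among wild-type mice, the differences that turned were -0.28 for *Icam1*, -0.25 for *Vcam1*, -0.43 for *Madcam1*, -0.71 for *Selp*, -0.34 for *Itgal* and -0.08 for *Itgb7* for females against males of the *Nckap1l* line, and 0.15 for *Itgb7* for females against males of the *Dock2* line. Without libraries under 10000000 counts, the differences that turned were 0.13 for *Vcam1*, 0.16 for *Sele*, 0.21 for *Selp*, 0.10 for *Itgb2* and 0.20 for *Itgam* in the *Dock2* line. Without the samples with skin markers, the differences that turned were -1.01 for *Icam1* and -0.85 for *Vcam1* in the *Nckap1l* line, -0.02 for *Icam1* and -0.19 for *Madcam1* in the *Dock2* line, -0.19 for *Madcam1* and -0.01 for *Selp* in the *Dok3* line, -0.46 for *Icam1*, 0.00 for *Sele*, -0.63 for *Selp* and -0.06 for *Itgal* for females against males of the *Nckap1l* line, and -0.38 for *Madcam1* and -0.06 for *Itga4* for females against males of the *Dock2* line. Without the samples with skin markers and the library highest in *Itgam* together, the differences that turned were -0.57 for *Icam1* and -0.50 for *Vcam1* in the *Nckap1l* line. Without the library highest in *Itgam*, the differences that turned were 0.13 for *Madcam1*, 0.31 for *Sele*, 0.50 for *Selp*, 0.43 for *Itgb2*, 0.18 for *Itgal*, 0.44 for *Itgam* and 0.05 for *Itgb7* in the *Nckap1l* line, 0.13 for *Vcam1*, 0.16 for *Sele*, 0.21 for *Selp*, 0.10 for *Itgb2* and 0.20 for *Itgam* in the *Dock2* line, and -0.17 for *Madcam1*, -0.30 for *Sele*, -0.39 for *Selp*, -0.34 for *Itgb2* and -0.46 for *Itgam* in the *Dok3* line.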
